A study of Mus musculus with 6 samples.

Results

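The highest-scoring open chromatin regions of mouse thymus were the 1035 regions whose best ATAC-seq summit stood at or above percentile 97 of its own library in all 6 libraries of the study. They were chosen by the scores themselves. Windows reaching 250 bp to either side of every summit on chromosomes 1 to 19 were merged where they overlapped, which gave 72291 regions, of which 37606 had a summit in every library. The score of a summit was ranked within its library, with 100 at the top, and a region was kept on its lowest percentile over the 6 libraries. The 1035 regions were 1.43% of all regions and 2.75% of the regions present in all 6 libraries. The scores and percentiles given below describe how the regions were chosen and were not tested.

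Thymus was collected from mice 4 weeks old, of a background of 50% BALB/C and 50% C57BL6, that carried germline changes of the p53 gene. In 3 libraries the genotype was p53 AD/-, in which the series title ties the AD allele to dimers of p53 and the other allele is null. The other 3 libraries were p53 -/-, called p53-null, so every mouse lacked at least one functional p53 copy and no library came from a mouse with normal p53. The labels name thymus and no sort of its cells, so the regions average over all of them. Replicates were numbered here in accession order, which names the libraries and pairs none. Nothing states that the libraries came from separate mice, and p-values therefore measure the spread between these libraries. Each library's file held 44496 to 60160 summits, with the fewest in p53 AD/- replicate 3. All 14 thymocyte marker genes had a summit within 1 kb of a gene end in every library, whereas 2 or 3 of 8 B cell markers and 1 to 3 of 8 myeloid and dendritic markers did. The counts were 3 to 5 of 8 for thymic epithelial markers, 4 or 5 of 7 for mature T, NK and innate-like markers, 3 of 8 for endothelial and mesenchymal markers, 2 of 5 for erythroid markers and 2 of 4 for adipose markers.

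ATAC-seq uses a transposase that inserts sequencing adapters where DNA is not wrapped in nucleosomes, so a summit marks the point of densest insertion in an open stretch. In most tissues the most open stretches are the promoters of widely used genes, which are rich in CpG dinucleotides and are bound by SP and KLF proteins, NF-Y, ETS factors and NRF1. Enhancers that set the identity of a cell, in thymocytes those bound by RUNX, E proteins, TCF1 and GATA3, tend to be less open and to differ more between cell types.

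The 200 bases before the RefSeq start site are shown for 9 promoters as examples. The motif shares given further below were taken on a longer window, from 250 bases before to 50 after the start site. The median summit lay outside the bases shown for Ska2 (-242 bp from the start site), Vps26c (-233 bp), Pkn2 (-206 bp) and Bcl10 (20 bp). Among genes whose 200 upstream bases overlapped no annotated gene, the first 6 have the highest-ranked regions, and Bcl10, Trp53bp2 and Hnrnpa0 have the highest-ranked ones of the T cell receptor, p53 regulator and splicing factor lists. Sequences run 5′ to 3′ towards the start site. Capitals mark matches on either strand to the promoter motifs CCAAT (NF-Y), GGGCGG (SP and KLF), CCGGAAG (ETS), GCATGCGC (NRF1), TGACGTCA (CRE) and AAGATGGC (YY1).
Usp20: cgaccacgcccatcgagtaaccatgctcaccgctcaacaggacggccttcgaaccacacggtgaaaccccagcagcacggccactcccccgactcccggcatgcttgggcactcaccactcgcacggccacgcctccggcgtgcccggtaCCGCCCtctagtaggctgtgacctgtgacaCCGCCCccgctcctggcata
Pdia4: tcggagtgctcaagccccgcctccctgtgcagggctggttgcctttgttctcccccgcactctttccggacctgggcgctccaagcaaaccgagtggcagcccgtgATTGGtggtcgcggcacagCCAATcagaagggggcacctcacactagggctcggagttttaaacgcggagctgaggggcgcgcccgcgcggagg
Ska2: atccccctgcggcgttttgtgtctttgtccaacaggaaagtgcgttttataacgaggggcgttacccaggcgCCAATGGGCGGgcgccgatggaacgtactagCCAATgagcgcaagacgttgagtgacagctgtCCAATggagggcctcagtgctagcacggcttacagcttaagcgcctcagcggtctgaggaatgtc
Ubald2: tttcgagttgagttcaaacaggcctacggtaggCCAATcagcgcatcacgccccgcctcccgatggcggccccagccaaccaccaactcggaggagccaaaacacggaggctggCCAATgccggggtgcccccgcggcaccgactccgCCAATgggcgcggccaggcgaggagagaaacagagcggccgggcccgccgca
Vps26c: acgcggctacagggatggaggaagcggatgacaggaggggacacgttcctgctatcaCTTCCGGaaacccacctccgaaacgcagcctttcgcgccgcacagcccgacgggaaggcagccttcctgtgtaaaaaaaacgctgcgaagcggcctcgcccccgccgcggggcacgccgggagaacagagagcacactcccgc
Pkn2: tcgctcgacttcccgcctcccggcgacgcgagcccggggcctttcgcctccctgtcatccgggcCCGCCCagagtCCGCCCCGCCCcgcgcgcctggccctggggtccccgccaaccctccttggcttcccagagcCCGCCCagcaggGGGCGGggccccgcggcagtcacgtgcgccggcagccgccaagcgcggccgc
Bcl10: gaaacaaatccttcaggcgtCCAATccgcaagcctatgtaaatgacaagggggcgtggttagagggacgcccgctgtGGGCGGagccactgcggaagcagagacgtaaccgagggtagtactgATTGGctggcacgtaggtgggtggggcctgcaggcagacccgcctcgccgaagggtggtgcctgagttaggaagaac
Trp53bp2: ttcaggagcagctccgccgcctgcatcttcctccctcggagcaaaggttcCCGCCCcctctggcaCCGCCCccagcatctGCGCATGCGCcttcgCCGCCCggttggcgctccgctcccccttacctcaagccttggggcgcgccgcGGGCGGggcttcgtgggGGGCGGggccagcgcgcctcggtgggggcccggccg
Hnrnpa0: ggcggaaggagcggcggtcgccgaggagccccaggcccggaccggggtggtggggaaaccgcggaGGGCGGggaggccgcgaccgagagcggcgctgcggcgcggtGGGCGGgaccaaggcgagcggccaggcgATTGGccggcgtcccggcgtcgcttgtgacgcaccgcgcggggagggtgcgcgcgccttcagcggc
In RefSeq coordinates of GRCm38.p6 these stretches are Usp20 chr2:30982079-30982278 (plus strand), Pdia4 chr6:47813513-47813712 (minus strand), Ska2 chr11:87109061-87109260 (plus strand), Ubald2 chr11:116433894-116434093 (plus strand), Vps26c chr16:94526630-94526829 (minus strand), Pkn2 chr3:142882005-142882204 (minus strand), Bcl10 chr3:145924062-145924261 (plus strand), Trp53bp2 chr1:182408967-182409166 (plus strand), Hnrnpa0 chr13:58128557-58128756 (minus strand). Usp20 encodes a deubiquitinating enzyme, Pdia4 a disulphide isomerase of the endoplasmic reticulum, Ska2 a kinetochore protein, Ubald2 a small protein with a UBA-like domain, Vps26c a subunit of an endosomal sorting complex and Pkn2 a serine/threonine kinase. The stretch of Ska2 held 3 CCAAT boxes, one of them directly joined to an SP and KLF match. That of Ubald2 also held 3 CCAAT boxes, while that of Pkn2 held 5 SP and KLF matches and no CCAAT box. The stretch of Pdia4 held 2 CCAAT boxes, on opposite strands, and that of Vps26c held a single ETS match. Trp53bp2, which encodes a p53-binding protein, had 5 SP and KLF matches and 2 overlapping NRF1 matches. Bcl10, an adaptor between antigen receptors and NF-kB, had 2 CCAAT boxes and 1 SP and KLF match. Hnrnpa0, an RNA-binding protein, had 2 SP and KLF matches and 1 CCAAT box.

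The same 1035 members were set against each library's own top, whose size follows the length of the library's list. It ranged from 1333 regions in p53 AD/- replicate 3, the shortest list, to 1801 in p53 AD/- replicate 2, the longest. The shares below therefore restate list length. Of the regions at or above percentile 97 in a library, the members were 63.3%, 57.5% and 77.6% in p53 AD/- replicates 1, 2 and 3, and 63.8%, 62.1% and 59.6% in p53 -/- replicates 1, 2 and 3. A further 243 regions passed in 5 libraries, and p53 AD/- replicate 3 was the one that failed for 96 of them. Between them, 2318 regions passed in at least 1 library, so the members were 44.7% of these. Of these 2318 regions, 3 passed in all p53 AD/- libraries and in no p53 -/- library, and 11 did the reverse. Both counts come from the percentiles that the rule used and follow list length. They were therefore not read as a difference between genotypes. Scores are on the −log10 scale of a q-value, and the score at percentile 97 ranged from 301 in p53 AD/- replicate 3 to 1291 in p53 -/- replicate 2. The median member score was 14.3 to 20.5 times the median of all summits of the same library.

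At the threshold the order was close. The members with the lowest values just inside it lay at the ends of Ano10, Rap2a, Carm1, Tnrc6b and Cblb, with lowest percentiles of 97.02, 97.02, 97.01, 97.01 and 97.002. Of the 5 regions just outside it, those at the ends of Ube2v1, Cnot9 and Morc3 had 96.999, 96.995 and 96.988. Of the 1035 members, 913 scored under 1.5 times their library's score at percentile 97 in every library, and 6 scored at least 2 times that score in every library.

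The 7 regions at the very top stood apart from the rest, and none of them was within 1 kb of a protein-coding gene end or inside such a gene. Their median score over the libraries was 2.34 to 4.36 times the score at percentile 97, against 1.53 to 1.84 times for the members ranked 8 to 25, of which 16 of 18 were at a gene end. The first was chr13:85126825-85127345, 62285 bp from the end of Ccnh, with ratios of 4.39, 4.01 and 8.54 in the p53 AD/- libraries and 6.11, 4.32 and 3.05 in the p53 -/- libraries. The second, chr1:24613231-24614021, lay at the annotated pseudogenes Gm10222 and Gm10925, the latter listed with the synonym mt-Atp6, the name of a mitochondrial gene. The seventh, chr17:39845258-39846012, lay at the pseudogene Rn18s-rs5, a ribosomal RNA related sequence. The others were 32203 bp or more from a gene end, the nearest of them on the side of Eea1. Galc, the nearest gene to the region at chr12:97061396-97061932, was 1140620 bp away, Tyrp1 was 830189 bp from the region on chromosome 4, and Pex2 was 282065 bp from the region on chromosome 3. The summits of the region near Pex2 fell within 1 bp in all 6 libraries. In the top 2 regions the ratio was highest in p53 AD/- replicate 3 and lowest in p53 -/- replicate 3, and the genotypes overlapped.

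**Figure D1:**
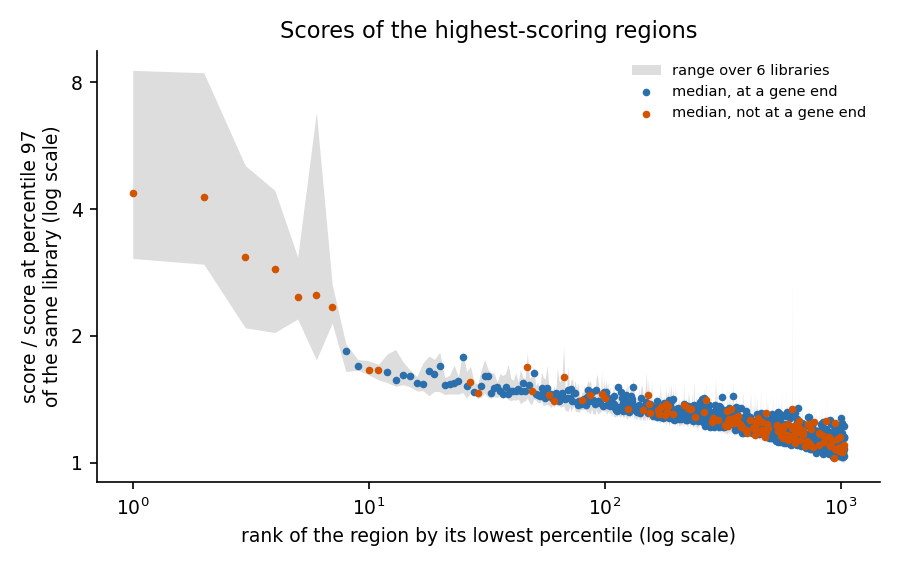
Score of each of the 1035 regions divided by the score at percentile 97 of the same library (vertical axis, log scale) against the region's rank by its lowest percentile (horizontal axis, log scale). Points are medians over the 6 libraries, coloured by whether the region is at a gene end, and the grey band is the range over libraries. The first 7 points, all away from gene ends, lie at 2.34 or above, and no point from rank 8 on lies above 1.84.

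Below these came regions at the ends of genes with varied functions. Pabpc1, which encodes the cytoplasmic poly(A)-binding protein, ranked 8 with percentiles of 99.99, 99.99 and 99.97 in the p53 AD/- libraries and 99.99, 99.98 and 99.97 in the p53 -/- libraries. A region shared by Usp20 and BC005624 ranked 9. Hjurp, the chaperone of the centromeric histone CENP-A, followed at 13, Atf2, a CRE-binding transcription factor, at 14 and Ep400, a chromatin remodelling ATPase, at 15. The next named genes were Rab33b, a small GTPase, Pdia4, Hspa8, the constitutive HSP70 chaperone, the pair Mis12 (kinetochore) and Derl2 (endoplasmic reticulum quality control), Phf20, a chromatin reader, and Sf1, a splicing factor that binds the branch point. Cdc34, a ubiquitin-conjugating enzyme, Rer1, a Golgi retrieval receptor, the pair Tomm40 (mitochondrial import) and Nectin2, Limk1, an actin-regulating kinase, and Ppp1cb, a catalytic subunit of protein phosphatase 1, were further down. In none of these regions did the lowest percentile fall under 99.84. Limk1 had the widest spread among them, with summits over 203 bp, and Atf2 the narrowest, at 11 bp.

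Most members lay at a gene end. A protein-coding gene began or ended within 1 kb of a summit in 899 of the 1035 regions, or 86.9% (95% Wilson interval 84.7 to 88.8, counting error only). The share was 84.5% among the 3193 regions whose lowest percentile was 90 to 97, 54.9% from 75 to 90, 17.0% from 50 to 75 and 9.10% under 25. A further 96 members (9.28%) were inside a gene away from its ends and 40 (3.86%) were outside genes. For comparison, gene ends held 27.8% of the 37606 regions with a summit in every library. Another 40.8% of those regions lay inside a gene and 31.4% outside genes. Of the full set of 72291 regions, gene ends held 18.3%, with 47.6% inside a gene and 34.0% outside genes. In each library taken alone, and counting single summits in place of merged regions, 86.3% ± 0.313 (SD, n = 6) of the summits at or above percentile 97 were at a gene end. The share was 19.9% ± 1.72 for the lower summits. The difference of 66.4 ± 1.55 percentage points was positive in 6 of 6 libraries, with p = 0.03125 by an exact two-sided sign-change permutation test, the smallest p that 6 libraries allow. The 3 p53 AD/- libraries differed by 65.9, 67.9 and 63.6 points and the 3 p53 -/- libraries by 66.3, 66.9 and 67.6 points, so the genotypes overlapped. All libraries ranked largely the same regions, with Spearman correlations of their scores of 0.963 to 0.983 between pairs. The sign-change p therefore does not rest on 6 independent tests of gene position. The split at percentile 97 was also the cut of the rule, and members were 57.5% to 77.6% of each library's own top regions. The test is thus no separate support for the share among members.

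**Figure D2:**
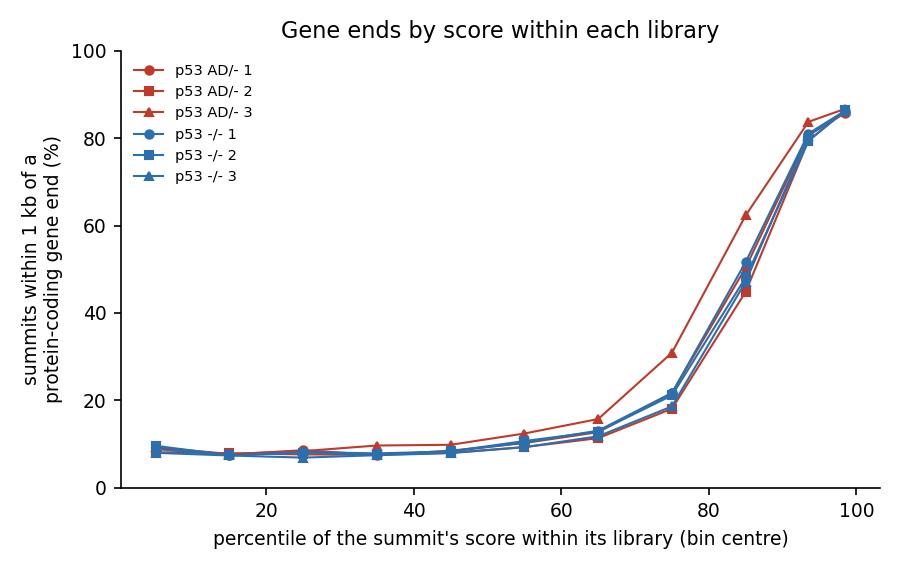
Share of summits within 1 kb of a protein-coding gene end (vertical axis, percent) by the percentile of their score within the library (horizontal axis), with 1 line for each of the 6 libraries, red for p53 AD/- and blue for p53 -/-. The lines stay near 10% up to the middle of the ranking and reach 85.8% to 86.7% in the top bin.

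Members sat further upstream of start sites than weaker promoter regions. Start sites came from the RefSeq promoter table, which has no entry on chromosome 18, and 822 of 1003 members elsewhere (82.0%) had one within 1 kb of the median summit. The summit lay upstream of the nearest start site in 610 of these 822 (74.2%), against 65.6% for lowest percentiles of 90 to 97 and 55.4% for 50 to 75. The median position was -67 bp for members, -29.5 bp for 90 to 97 and -10.8 bp for 50 to 75. The lower quartile of the members was -146 bp, compared with -83.1 bp and -64 bp in the other 2 classes. Start sites of different genes, on both strands and within 1 kb of a summit, were found at 138 of the 822 members (16.8%). The share was 13.0% in the 90 to 97 class and 2.58% in the 50 to 75 class. The order of the start sites was not checked, so these need not be shared bidirectional promoters. Larp7 with Zgrf1, Ska2 with Prr11, Erp29 with Tmem116 and Atm with Npat were among the pairs of genes with ends at 1 member. These shares are descriptions over regions and were not tested.

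**Figure D3:**
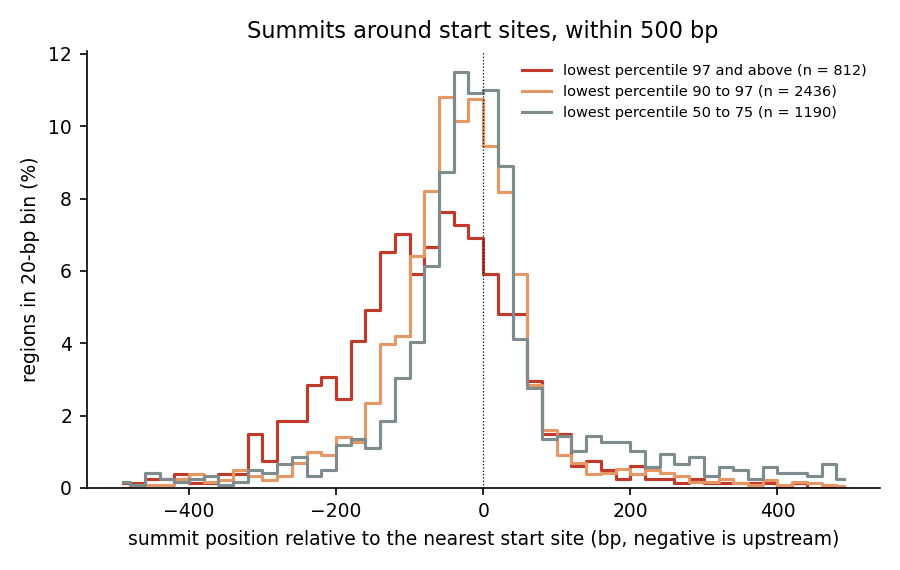
Position of the median summit relative to the nearest start site (horizontal axis, bp, negative is upstream) for regions within 500 bp of one, as the percentage of each class in bins of 20 bp (vertical axis). The line of the highest-scoring regions (n = 812) is lower at the start site and extends further upstream than those of the classes 90 to 97 (n = 2436) and 50 to 75 (n = 1190).

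The promoters of the members were rich in GC, CpG, SP and KLF motifs and CCAAT boxes. Promoters are here the 300 bases from 250 before to 50 after a RefSeq start site, and 803 of 20085 held the median summit of a member. The median GC content was 66.7% in these 803, 64.3% in the 90 to 97 class and 57.0% over all promoters. A CpG ratio (observed over expected from base content) of at least 0.6 was found in 96.6%, 94.3% and 48.9%. The motif GGGCGG was present in 694 of the 803 member promoters (86.4%, Wilson interval 83.9 to 88.6), in 80.7% of the 90 to 97 class, in 67.3% of the 50 to 90 class and in 47.0% of all promoters. CCAAT was present in 429 (53.4%, interval 50.0 to 56.9), against 48.3%, 36.3% and 38.1%. At member promoters with the motif, the nearest GGGCGG lay a median of 35 bp and the nearest CCAAT a median of 42.5 bp from the summit. The medians were 38.25 bp for NRF1, 56.5 bp for CRE, 72 bp for ETS and 102.5 bp for YY1. These promoters were chosen for holding the summit within their 300 bases, and no background distance was taken, so the distances are a description.

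CpG content alone differs between these classes, so the shares were also taken among promoters with a CpG ratio of at least 0.6. Above this cut the median CpG ratio still ran from 0.907 in members to 0.787 in promoters without a summit. The median GC content was 66.7% in members, 64.7% in the 90 to 97 class and 67.7% in the 0 to 50 class. The cut therefore did not hold base composition fixed between the classes of these CpG-rich promoters. There GGGCGG was present in 87.0% of 776 member promoters, 81.9% of 2314 in the 90 to 97 class, 72.2% of 2974 in the 50 to 90 class and 64.7% of 2511 without a summit in any library. The shares did not fall steadily with the ranking, since GGGCGG was in 82.1% of the 318 promoters of the class 0 to 50 and in 74.8% of the 937 with a summit in 1 to 5 libraries. CCAAT was in 53.2% of member promoters, 46.8% of the 90 to 97 class, 34.5% of the 50 to 90 class, 26.4% of the 0 to 50 class, 30.5% of those with a summit in 1 to 5 libraries and 27.4% of those without a summit. The ETS motif CCGGAAG was in 24.6% of member promoters, 27.0% of the 90 to 97 class, 24.9% of the 50 to 90 class, 6.29% of the 0 to 50 class and 9.92% of those without a summit. NRF1 matches were found in 10.1% of member promoters and 6.38% of all CpG-rich promoters, and CRE matches in 5.03% and 3.76%. Of the motifs named for thymocyte regulators, the RUNX motif TGTGGT was in 9.15% of member promoters and 9.35% of all CpG-rich promoters, and CTTTGA (TCF and LEF) was in 5.80% and 9.26%. The E protein motif CAGCTG, searched together with its variant with GG in the middle, was in 23.8% of member promoters and 27.4% of all CpG-rich ones. The GATA motif AGATAA was found in 2.45% and 4.21% of them. The AP-1 motif TGAGTCA was found in 2.32% and 2.48%, and the E-box CACGTG in 12.5% and 11.4%. A match is a run of letters and does not show that a protein binds there.

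**Figure D4:**
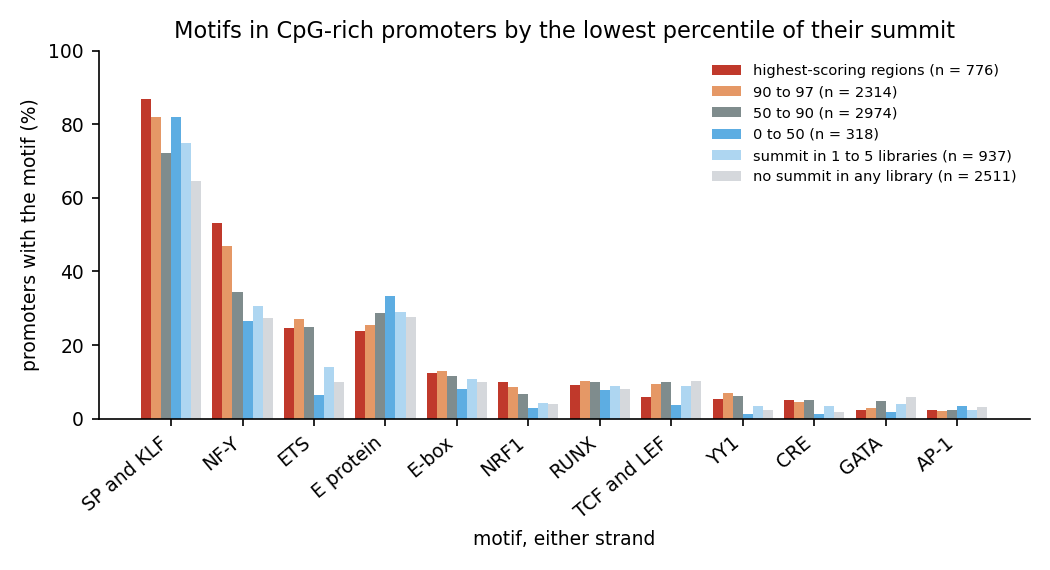
Share of CpG-rich promoters of 300 bases with each motif on either strand (vertical axis, percent) for promoters holding a highest-scoring region (n = 776), a region of lowest percentile 90 to 97 (n = 2314) 50 to 90 (n = 2974) or 0 to 50 (n = 318), a summit in 1 to 5 libraries (n = 937) or no summit in any library (n = 2511). The red bars are the tallest for SP and KLF (87.0%) and for NF-Y (53.2%), and the SP and KLF bar of the class 0 to 50 (82.1%) is next to them in height.

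The share of genes with a member differed widely between gene lists, from 9 of 39 open splicing factors to 0 of 46 open T cell transcription factors. A member lay at an end of 1086 of 20665 protein-coding genes (5.26%), or 9.82% of the 11063 genes with a region at an end in all 6 libraries, which is the background for each list below. Among SR and hnRNP splicing factors, which choose splice sites, 9 of 39 such genes had a member, including Hnrnpa3, Hnrnpc, Hnrnpa0 and Srsf10. Enzymes of glycolysis and the TCA cycle counted 7 of 31, including Pcx (pyruvate carboxylase), Ogdh, Mdh1, Mdh2, Pdhb and Sdha. Ubiquitin-conjugating enzymes counted 6 of 31, including Ube2d3, Ube2n and Ube2g1. Translation initiation factors counted 8 of 48, including Eif5a, Eif4b, Eif4g2 and Eif1. DNA damage and repair genes counted 6 of 34, including Atm (a damage kinase, sharing its region with Npat), Msh6 (mismatch repair), Ogg1 (base excision), H2ax and Parp2.

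Several other groups of widely expressed genes were near or under the background. Cytosolic ribosomal proteins counted 6 of 77, mitochondrial ribosomal proteins 6 of 74, oxidative phosphorylation subunits 6 of 82 and proteasome subunits 1 of 35, which was Psmd5. The 52 replication-dependent histone genes with a region in all 6 libraries had no member, although their median lowest percentile was 88.2. Zinc finger genes with a Zfp symbol counted 18 of 250. Of RNA polymerase II and general factors, 5 of 42 had a member, including Ccnt1 and Ccnt2, the cyclins of P-TEFb. Of chromatin regulators, 3 of 35 did: Smarca4 (the BRG1 ATPase), Kmt2a (MLL1) and Ctcf. Above the background were the housekeeping list with 2 of 15 and DEAD-box RNA helicases with 4 of 30 (13.3% each). MHC and antigen presentation genes, with 3 of 18 (16.7%), were above it too.

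No T cell transcription factor had a member at an end, although 46 of the 55 on these chromosomes had a region there in all 6 libraries. Their median lowest percentile was 82.3, against 87.0 over the 11063 genes. None of the 14 thymocyte markers had one either, and the median over the 13 with a region in all 6 libraries was 79.1. The highest was Cd8b1, a coreceptor chain, whose percentiles were 89.8, 88.5 and 88.2 in the p53 AD/- libraries and 90.4, 91.3 and 89.97 in the p53 -/- libraries. Rag1, of the V(D)J recombinase, had 85.6, 85.8 and 82.2 against 85.2, 88.4 and 85.5. Cd4 had 68.0, 72.7 and 56.7 against 66.8, 68.8 and 71.1, and Dntt, the terminal transferase, had 33.8, 38.2 and 29.6 against 36.0, 47.2 and 51.2. The library with the fewest summits, p53 AD/- replicate 3, was the lowest at all 4 genes, and percentiles of lists of different lengths were not compared between genotypes. Of T cell receptor signalling genes, 4 of 43 had a member, namely Malt1, Bcl10, Nck1 and Cblb. Of V(D)J recombination genes 1 of 12 did, Prkdc, the DNA-dependent protein kinase, which shares its region with Mcm4. Thymocyte migration genes counted 0 of 21, and cytokine receptor and JAK-STAT genes 2 of 26, Socs1 and Jak2.

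The share of p53 targets (9.38%) was close to the background, and that of p53 family genes and regulators (13.3%) was above it on few genes. Of the p53 target list, 3 of 32 genes had a member: Rrm2b (a ribonucleotide reductase subunit), Apaf1 (the apoptosome scaffold) and Fdxr (ferredoxin reductase). Of p53 family genes and regulators, 2 of 15 did, Atm and Trp53bp2. The region at the ends of Trp53 and Wrap53 was not a member, with percentiles of 84.1, 85.6 and 79.9 in the p53 AD/- libraries and 86.5, 83.4 and 84.1 in the p53 -/- libraries. Interferon response genes counted 0 of 22, genes for PPAR, RXR and their coregulators 0 of 14 and PPAR targets and lipid metabolism genes 3 of 27, including Acly (ATP citrate lyase). The BCL2 family counted 0 of 13 at gene ends, but 1 member lay inside Bcl2l1, which encodes BCL-XL, 2414 bp from its end. These counts were read against the background and no list was tested.

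**Figure D5:**
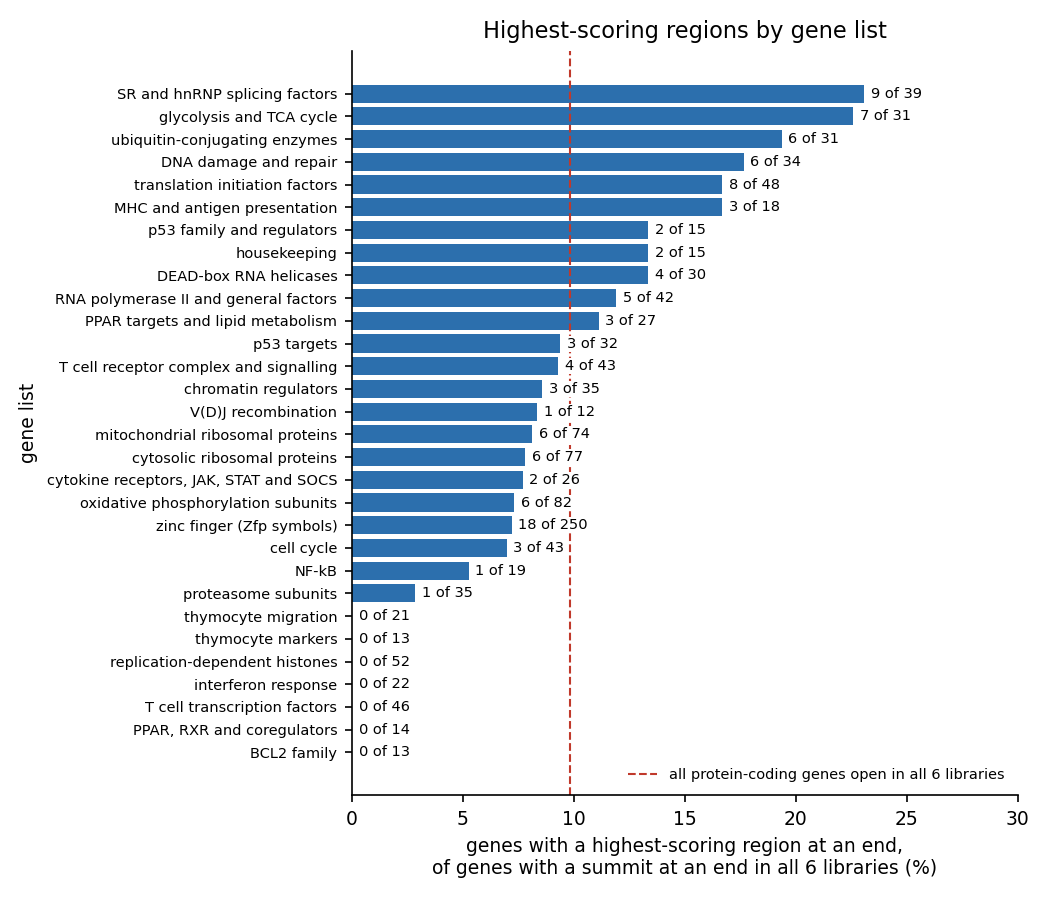
Genes with a highest-scoring region at an end as a percentage (horizontal axis) of the genes of each list (vertical axis) that had a summit at an end in all 6 libraries, for lists with at least 12 such genes. The dashed line marks 9.82%, the share over all protein-coding genes, and the counts stand beside the bars, from 9 of 39 splicing factors to 0 of 46 T cell transcription factors.

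Members away from gene ends were mostly still near a gene. Of these 136 regions, 30 lay within 1 kb of an end of a non-coding gene or pseudogene, 54 were over 10 kb from any protein-coding end and 18 were over 50 kb away. Tsga10, a testis-associated gene, and Map4, a microtubule-associated protein, held the highest-ranked ones inside genes, 1269 and 1776 bp from an end, at ranks 10 and 11. Deeper inside genes were members in Stard13 (59525 bp from an end), Asap1 (70134 bp) and Stag1, a cohesin subunit (45746 bp). Dnmt1, the maintenance DNA methyltransferase, held one 7033 bp from an end and Chd2 one at 3863 bp. None of the lists of T cell transcription factors, thymocyte markers or T cell receptor signalling had a gene with a member inside it. With 96 members inside genes and 20665 protein-coding genes, lists of 55, 14 and 44 genes could easily hold none. Their absence is therefore no result about these lists.

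Each member had exactly 1 summit in each of the 6 libraries, as did 100% of the 90 to 97 class and 99.1% of all regions present in all 6 libraries, so this number could not separate the genotypes. The median distance to the next region was 9501 bp, compared with 8465 bp in the 90 to 97 class and 3852 bp under percentile 25. On average 0.386 other regions present in all 6 libraries lay within 10 kb of a member, against 0.501 for the 90 to 97 class and 0.924 for all regions that were not members. The share of members among the regions present in all 6 libraries ran from 1.82% on chromosome 16 to 3.38% on chromosomes 5 and 8.

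The range of the best summit's position over the 6 libraries had a median of 53 bp (quartiles 29 and 80.5) in members, 50 bp in the 90 to 97 class and 42 bp in the 50 to 75 class, so the median was not lower in members. In 46 members (4.44%) all 6 libraries had the summit at the same base, a share close to the 4.13% of the 90 to 97 class and above the 1.65% of all regions that were not members. These included the promoters of Larp7, Rrm2b, Trp53bp2, Ctcf, Parp2, Gsk3b and H2az1. The widest ranges were 489 bp at Opa3 and 404 bp at Cep57 and Fam76b. The median distance of a library's summit from the median position was 4.83 ± 1.26 bp (SD, n = 3) in p53 AD/- and 6 ± 0.866 bp (SD, n = 3) in p53 -/-, a difference of -1.17 bp with p = 0.30 by an exact two-sided permutation test, whose smallest p here is 0.10. The difference changed sign without p53 AD/- replicate 1 (0.50 bp) and without p53 -/- replicate 3 (1.17 bp).

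The position of the best summit was compared between genotypes, since the rule did not use it. At an adjusted p under 0.05 (limma with robust variances, Benjamini-Hochberg over all 37606 regions), 61 regions differed, which is a background of 0.162%. Of the 1035 members, 3 did (0.29%): those at Eif5a, Gbe1 and Tmem250-ps. At Eif5a, a translation factor, the summit was at position 69921557 of chromosome 11 in all 3 p53 AD/- libraries and at 69921483, 69921483 and 69921486 in the p53 -/- libraries. The groups did not overlap, and the difference was 73 ± 3.36 bp (SE, limma adjusted p = 0.0194). At Gbe1, the glycogen branching enzyme, the p53 AD/- summits were at 70314314, 70314316 and 70314314 of chromosome 16 and the p53 -/- summits at 70314372, 70314372 and 70314374, a difference of -58 ± 3.35 bp (SE, limma adjusted p = 0.0248). At Tmem250-ps, on chromosome 2, the summit was at 26140511 in every p53 AD/- library and 26140561 in every p53 -/- library, a difference of -50 ± 3.24 bp (SE, limma adjusted p = 0.0274). With no spread within either genotype there, this SE reflects the variance that limma shares over all regions. The same SE of 3.24 bp was given at Hbp1 and Srsf10, which also had no spread within a genotype and were not called. The SEs at Eif5a and Gbe1 were close to it. By the looser rule that all 3 positions of one genotype lie on one side of all 3 of the other, 51 members were called (4.93%), against 6.11% of all regions. Without 1 library the count over all regions ranged from 17 (without p53 -/- replicate 1) to 163 (without p53 AD/- replicate 3), and among members from 0 (without p53 -/- replicate 2) to 7 (without p53 -/- replicate 3).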

How the data were processed

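ATAC-seq summits of 6 thymus libraries were used as the authors deposited them: 1 list per library of intervals of 1 bp with a score, read as the −log10 of a q-value because the lowest score stood just above 1.30, that of q = 0.05. Per the submitters' processing notes, the build was GRCm38 and the tools were MACS2 2.1.2, Picard 2.9.0, Bowtie2 2.3.4.2 and Trim Galore 0.4.5. Their settings, read shifting, duplicate removal and masking are not given in the sources used here. Scores rise with depth, which is unknown, so they were ranked within a library only.

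Genes came from a RefSeq table of GRCm38.p6 without strand. The planned switch to start sites was not made for the main measure, because the promoter table covered 79.6% of protein-coding genes, and start sites served as an alternative. Positions were fitted with limma 3.58.1 (R 4.3.3), which offset near-zero variances, and the script was tested on simulated data. Intervals are Wilson at 95%. Python 3.11.15 and pandas 2.3.3 did the rest.

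The named genes were the 20 highest-ranked at gene ends, the 12 highest-ranked away from them, up to 6 per list, the 5 regions on each side of the threshold, members called in the position test, the 5 widest, the 10 highest shared pairs and Trp53. A few genes that the rule names are not reported here. Genes named by position inside a gene, identical summits or as thymocyte markers were added after their values were seen. The regions and lists were chosen with earlier results of these data known.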

Additional observations from a re-analysis of the deposited data

How the results depend on the processing

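The number of regions was 1949 at percentile 95, 265 at percentile 99 and 838 to 1036 under the other alternatives with all libraries. Leaving out 1 library gave 1053 to 1131. The share at a gene end was 83.7% within 500 bp, 90.5% within 2 kb and 82.0% with start sites, an alternative chosen after seeing the data. Leaving out 1 library kept it at 86.5% to 87.0%. The difference between top and lower summits was 66.1 to 66.9 points without 1 library, where 5 libraries cannot give p under 0.0625. The distance of summits from the median position differed by -1.83 to 1.17 bp without 1 library, with 0.50 without p53 AD/- replicate 1 and 1.17 without p53 -/- replicate 3 of opposite sign, and the cause was not tested. Regions with a shifted summit numbered 17 to 163 without 1 library and 60 to 78 under the other alternatives. No paired analysis was possible because the labels give no replicate numbers, and those used here follow accession order.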

Other observations

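The X chromosome, which the choice of regions left out, had 768 regions with a summit in all 6 libraries when treated the same way. None of them was at or above percentile 97 in every library, which allows a share of up to 0.391%, whereas the share was 2.75% on chromosomes 1 to 19. The highest lowest percentile on X was 96.2. At percentile 90 the counts were 27 of 768 on X (3.52%) and 4228 on chromosomes 1 to 19 (11.2%), although 39.6% of the X regions lay at a gene end.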
